A study of Mus musculus with 8 samples.

Results

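Bile acid synthesis was followed through 10 mouse genes, chosen by name as enzymes of the classical and alternative pathways and of bile acid conjugation, among the 21899 genes of the table. They are Cyp7a1, Cyp7b1, Cyp8b1, Hsd3b7 and Akr1d1, whose products act on the sterol ring, Cyp27a1, Amacr and Acox2, which act on the side chain, and Slc27a5 and Baat, which join the finished acid to an amino acid. RNA was sequenced from 8 liver samples of mice, 4 labelled wild type and 4 labelled P2X4R knockdown, which the series description writes as P2X4R-/-. Both groups were taken 8 h after ConA, so this treatment is common to all samples, and livers without ConA were not analysed here. P2rx4 encodes P2X4R, a cation channel opened by extracellular ATP. ConA, or concanavalin A, is a lectin from jack beans that drives T-cell-mediated hepatitis in mice. The labels give no strain, sex or age, and do not say how the receptor was depleted, in which cells, or whether each library came from a separate animal. The p-values below therefore measure the spread between these samples, which may be technical.

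Hepatocytes make bile acids from cholesterol. In the classical pathway Cyp7a1 hydroxylates cholesterol in the endoplasmic reticulum and sets the rate, and in the alternative pathway the mitochondrial enzyme Cyp27a1 oxidises the side chain before Cyp7b1 acts on the ring. Cyp8b1 decides how much cholic acid is made, peroxisomal enzymes shorten the side chain, and the product is released into bile as a conjugate with taurine or glycine. Bile acids repress their own synthesis through the nuclear receptors FXR (Nr1h4) and SHP (Nr0b2). They also do so through an intestinal hormone that is read by the receptor FGFR4 with its coreceptor beta-klotho (Klb). The nuclear receptors LRH-1 (Nr5a2) and HNF4A (Hnf4a) activate Cyp7a1 and Cyp8b1, and inflammatory cytokines are known to lower both.

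Library totals ran from 15445285 to 16604190 counted reads. P2rx4 was lower in all 4 deficient libraries, at 17.3, 24.9, 27.0 and 29.6 CPM (reads scaled to a common library total, with the TMM method) in deficient 1 to 4, against 43.8, 62.4, 59.7 and 57.6 in wild type 1 to 4. It fell by 1.18 (log2, SE 0.19, adjusted p = 0.00481 in edgeR), and the reads that remain do not show which part of the gene was altered. Albumin (Alb), the defining hepatocyte transcript, was the marker used to check the tissue label, and had 919303 to 1374802 reads per library.

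Of the 10 enzymes, 9 had reads and passed the filter on low counts, and 5 of these fell in deficient livers while 0 rose. They were Cyp7a1, Cyp8b1, Akr1d1, Slc27a5 and Cyp27a1. Cyp7b1, Amacr, Acox2 and Baat did not pass the test. In bulk tissue, fewer hepatocytes and less RNA of a gene per hepatocyte cannot be told apart. Calls are edgeR quasi-likelihood tests at an adjusted p under 0.05, and among all 11380 genes tested 19.9% were called, 10.6% lower and 9.27% higher. The median log2 fold change over the 9 enzymes was -0.81, against 0.00 over all genes tested. Since the enzymes were chosen with earlier results of these data in view, neither number sets them apart from other liver genes. By role, 3 of 4 tested ring enzymes, 1 of 3 side chain enzymes and 1 of 2 conjugating enzymes fell. The groups did not overlap for the same 5 genes that fell, and 12.3% of all genes tested were lower in deficient livers without overlap. Of all 5, Cyp7a1, Akr1d1 and Slc27a5 kept the call in every setting that tested them. The count was 3 without deficient 3 and 3 without wild type 3, where Cyp8b1 and Cyp27a1 missed the threshold (adjusted p = 0.0731 and 0.0571 without deficient 3, 0.0888 and 0.0825 without wild type 3).

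**Figure D1:**
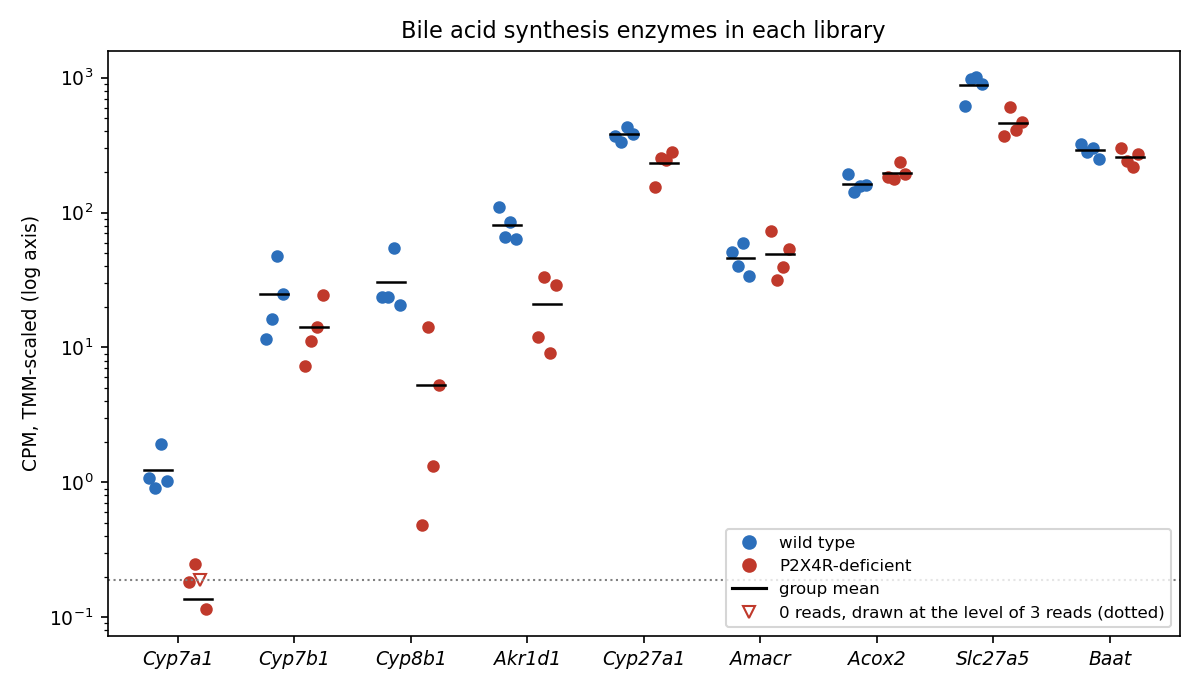
TMM-scaled CPM (log axis) of the 9 enzymes with reads in each library, with wild type in blue, P2X4R-deficient in red and black bars for the mean of 4 libraries; the open triangle is a library with 0 reads, drawn at the level of 3 reads (dotted line). All deficient points lie below all wild-type points for Cyp7a1, Cyp8b1, Akr1d1, Cyp27a1 and Slc27a5, and the points of the groups overlap for Cyp7b1, Amacr, Acox2 and Baat.

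Cyp7a1 (ENSMUSG00000028240; listed on chromosome 4, 6265612 to 6275633, minus strand), the rate-limiting enzyme of the classical pathway, was scarce in both groups. The deficient libraries 1 to 4 held 3, 4, 0 and 2 reads, and the wild-type libraries 17, 13, 29 and 16. Every wild-type library was above every deficient library, although all were low. Its mean FPKM (reads scaled to gene length and library total) was 0.279 ± 0.0986 in wild-type and 0.0338 ± 0.0259 in deficient livers (SD, n = 4), and only 3.11% of the genes tested had a lower mean FPKM over the 8 libraries. Over pooled reads, 9 against 75, wild-type livers held 9.23 times as much as deficient ones, with an exact 95% interval of 4.61 to 20.98 that covers counting error only. The fitted log2 fold change was -3.13 (SE 0.62, adjusted p = 0.00916 in edgeR), with a 95% interval from -4.48 to -1.77 that includes the spread between libraries. With single libraries left out it ran from -3.56 to -2.72 and passed in each case. It was not tested in the FPKM fits or at a minimum of 1 CPM in 4 libraries, filters that it did not pass.

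Cyp8b1 (ENSMUSG00000050445; listed on chromosome 9, 121743422 to 121745371, minus strand), the sterol 12-alpha-hydroxylase that directs synthesis to cholic acid, spread widely among the deficient libraries. They stood at 0.483, 14.1, 1.33 and 5.29 CPM in order 1 to 4, and the wild-type libraries at 23.7, 23.5, 54.9 and 20.6. Deficient 1 and deficient 3 held 8 and 23 reads, while deficient 2 came nearest to the wild-type range. Means were 5.30 ± 6.23 in deficient livers against 30.7 ± 16.2 CPM in wild type (SD, n = 4). Cyp8b1 fell by 2.54 (log2, SE 0.71, adjusted p = 0.0288 in edgeR), with a 95% interval from -4.09 to -0.99. Its call did not hold without deficient 3 (log2 fold -2.21, adjusted p = 0.0731), without deficient 4 (log2 fold -2.55, adjusted p = 0.0610) or without wild type 3 (log2 fold -2.09, adjusted p = 0.0888), or with robust empirical Bayes (adjusted p = 0.0655), and without deficient 2 the fold was -3.69.

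The stretch before the start of Cyp8b1 is shown because it holds letters that match the binding sites of HNF4A and LRH-1, and that before Akr1d1 because Akr1d1 was lowest in the same deficient libraries. Both are the 250 bases before the RefSeq start of transcription on GRCm38.p6, read 5′ to 3′ on the strand of the gene, with matches on either strand in capitals. They lie at chr9:121916306-121916555 on the minus strand and chr6:37529923-37530172 on the plus strand. The build of the listed gene spans was not stated, so the positions were not compared with them.
Cyp8b1: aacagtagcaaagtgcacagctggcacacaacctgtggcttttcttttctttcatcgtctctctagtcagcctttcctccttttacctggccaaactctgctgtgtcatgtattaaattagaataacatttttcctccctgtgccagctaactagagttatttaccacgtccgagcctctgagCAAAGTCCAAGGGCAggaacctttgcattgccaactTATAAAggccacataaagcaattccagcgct
Akr1d1: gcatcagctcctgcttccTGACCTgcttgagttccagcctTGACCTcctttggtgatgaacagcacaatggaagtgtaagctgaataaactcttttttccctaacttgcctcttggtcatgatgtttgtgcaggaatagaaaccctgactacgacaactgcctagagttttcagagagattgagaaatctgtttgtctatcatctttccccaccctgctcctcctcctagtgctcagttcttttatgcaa
In Cyp8b1 the HNF4A letters CAAAGTCCA, at 67 to 59 bases before the start, share 2 bases with the LRH-1 letters CAAGGNCA, at 60 to 53 bases. These letters stand in 0.384% and 5.53% of 32851 RefSeq promoter windows of this length. Both stand in 0.0335%, or 11 windows, wherever they lie in the window and whether or not they share bases. Since the Cyp8b1 window was shown for these letters, their rarity is no test of a link to its fall. The remaining capitals in Cyp8b1 are a TATA box, TATAAA, which 12.4% of windows hold. In Akr1d1 the capitals are 2 copies of the nuclear receptor half-site AGGTCA on the opposite strand, a motif found in 14.0% of windows. An LRH-1 match that ends in GTCA would contain this half-site, but Akr1d1 held 0 LRH-1 matches and 0 HNF4A matches. The AP-1 letters TGANTCA, held by 6.75% of windows, were found in neither Cyp8b1 nor Akr1d1. RefSeq windows were matched for 5 of the 10 enzymes, Cyp8b1, Akr1d1, Cyp27a1, Acox2 and Hsd3b7. The windows of Cyp27a1, which fell, and of Hsd3b7 held 0 matches to any of these letters. Both windows of Acox2, which overlap each other, held 1 AP-1 match, and Acox2 was not called. A match is a description of the letters and not a measured site.

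Akr1d1 (ENSMUSG00000038641; listed on chromosome 6, 37507108 to 37545750, plus strand), which reduces the ring double bond to the 5-beta form typical of bile acids, fell in every deficient library. Deficient 1 to 4 stood at 11.9, 33.5, 9.08 and 28.9 CPM and wild type 1 to 4 at 110.5, 65.5, 85.9 and 64.0. Deficient 1 and deficient 3 were again the lowest, as for Cyp8b1, and deficient 2 the highest of its group. Akr1d1 fell by 1.97 (log2, SE 0.38, adjusted p = 0.00786 in edgeR), which left 25.6% of the level in wild type (95% interval 14.5% to 45.2%). It passed in all 17 alternatives, with folds between -2.29 and -1.72.

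Cyp7b1 (ENSMUSG00000039519; listed on chromosome 3, 18126114 to 18297502, minus strand), the oxysterol 7-alpha-hydroxylase of the alternative pathway, overlapped between the groups. Deficient 1 to 4 stood at 7.24, 11.2, 14.2 and 24.4 CPM, and wild type 1 to 4 at 11.6, 16.2, 47.8 and 24.8. Only wild type 3 lay clearly above the deficient libraries. The log2 fold change was -0.81 (SE 0.43, edgeR adjusted p = 0.202), with a 95% interval from -1.75 to 0.12, and it was -0.30 without wild type 3. Cyp7b1 is known to be more abundant in male than in female mouse liver. The 4 Y-linked genes Ddx3y, Eif2s3y, Kdm5d and Uty had 3 reads over all 8 libraries, which is a measurement of these libraries and not a label.

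Hsd3b7 (ENSMUSG00000042289), which oxidises the ring after the first hydroxylation, was listed at 0 reads in all 8 libraries, so it has no level here. Its listed span, chromosome 7, 127399776 to 127402974 on the plus strand, lies wholly within that of Gm49388, 127384780 to 127402974 on the same strand, which also had 0 reads. Among the 382 genes that lie wholly inside another gene of their strand 43.7% had 0 reads in every library, against 26.0% of the other 21517. No other enzyme of the 10 lies inside another gene in this way. The counting program is not given in the sources used here, and how it treats such overlaps was not tested.

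Cyp27a1 (ENSMUSG00000026170; listed on chromosome 1, 74752733 to 74777051, plus strand), the mitochondrial sterol 27-hydroxylase that starts the alternative pathway and also oxidises the side chain in the classical one, fell modestly. Deficient 1 to 4 stood at 155.4, 255.1, 246.3 and 281.2 CPM and wild type 1 to 4 at 369.9, 336.4, 428.5 and 385.3. Deficient 1 was the lowest and the other 3 deficient libraries lay close together, all below the wild-type range. Cyp27a1 fell by 0.70 (log2, SE 0.19, adjusted p = 0.0271 in edgeR), which left 61.7% of the level in wild type (95% interval 46.2% to 82.5%). The adjusted p was 0.0571 without deficient 3, 0.0825 without wild type 3 and 0.0598 without wild type 4, with folds of -0.72, -0.64 and -0.68.

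The peroxisomal side chain enzymes did not pass. Amacr (ENSMUSG00000022244), the racemase that prepares the side chain for oxidation, ran between 31.4 and 72.9 CPM in deficient libraries and between 34.0 and 59.1 in wild type. Its log2 fold change was 0.10 (SE 0.26, edgeR adjusted p = 0.819), with a 95% interval from -0.46 to 0.66, and turned to -0.15 without deficient 1 and to -0.01 without wild type 4. Acox2 (ENSMUSG00000021751), the branched-chain acyl-CoA oxidase of the next step, was at 183.1, 177.2, 238.8 and 192.3 CPM in deficient 1 to 4 and at 191.8, 141.1, 158.7 and 160.0 in wild type 1 to 4. The groups overlapped only through wild type 1, and the log2 fold change was 0.28 (SE 0.16, edgeR adjusted p = 0.242) with a 95% interval from -0.07 to 0.63. The lower bound for Acox2, -0.07, lay above the upper bound for Akr1d1, -1.15.

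The conjugating enzymes gave different calls. Slc27a5 (ENSMUSG00000030382; listed on chromosome 7, 12722273 to 12732119, minus strand), the bile acid CoA ligase that activates the acid, was at 372.9, 608.4, 406.5 and 466.4 CPM in deficient 1 to 4. Wild type 1 to 4 were at 621.1, 978.1, 1006.7 and 902.2. Deficient 2 and wild type 1 nearly met, and the other libraries were well apart. Slc27a5 fell by 0.92 (log2, SE 0.21, adjusted p = 0.0130 in edgeR), which left 52.9% of the level in wild type (95% interval 38.7% to 72.2%), and it passed in all 17 alternatives. Baat (ENSMUSG00000039653; listed on chromosome 4, 49489422 to 49506557, minus strand), which transfers the activated acid to taurine or glycine, ran between 218.9 and 299.7 CPM in deficient libraries and between 251.7 and 321.1 in wild type. Its log2 fold change was -0.16 (SE 0.16, edgeR adjusted p = 0.494), with a 95% interval from -0.51 to 0.18.

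**Figure D2:**
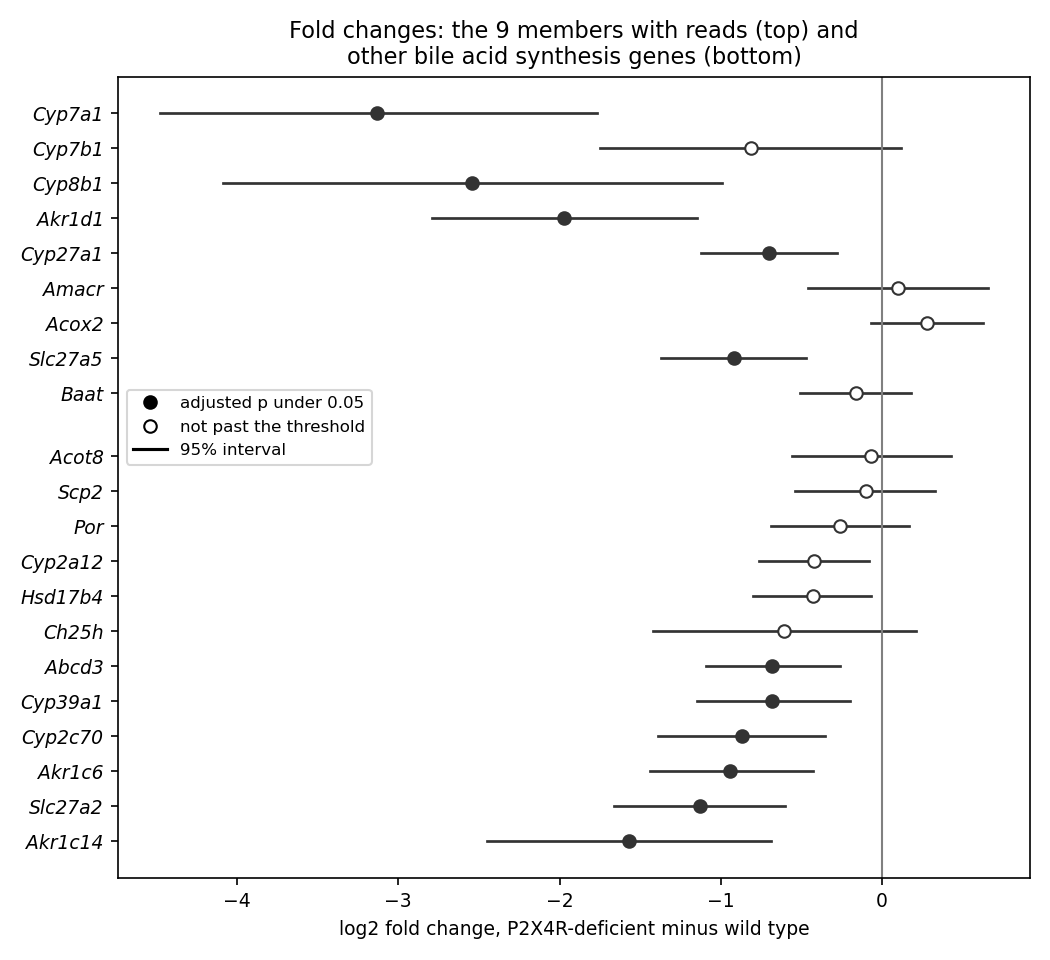
Log2 fold changes, P2X4R-deficient minus wild type, with 95% intervals from the edgeR fit; filled circles passed an adjusted p of 0.05. The upper block holds the 9 enzymes with reads, from -3.13 for Cyp7a1 to 0.28 for Acox2, and the lower block 12 other synthesis genes, all with estimates below 0 and 6 of them past the threshold.

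Compared per gene length, the order of the enzymes differed between the groups in several places. By mean FPKM in wild-type livers it was Slc27a5 at 339.98, Cyp27a1 at 166.2, Baat at 141.8, Acox2 at 41.97, Akr1d1 at 26.9, Amacr at 16.8, Cyp8b1 at 14.8, Cyp7b1 at 10.9 and Cyp7a1 at 0.279. In deficient livers Baat, at 139.99, stood above Cyp27a1 at 113.2, and Amacr, at 19.99, above Akr1d1 at 7.48. Cyp7b1, at 6.92, stood above Cyp8b1 at 2.78. Neighbours with overlapping ranges were Cyp27a1 and Baat, Acox2 and Akr1d1, Akr1d1 and Amacr, Amacr and Cyp8b1, and Cyp8b1 and Cyp7b1 in wild-type livers. In deficient livers they were Baat and Cyp27a1, Akr1d1 and Cyp7b1, and Cyp7b1 and Cyp8b1. Slc27a5 and Baat were adjacent in deficient livers, where their ranges, 164.1 to 251.4 and 121.4 to 165.6 FPKM, just overlapped.

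A ratio of 2 enzymes within a library depends little on library scaling, and 3 such ratios were compared by exact two-sided permutation over the 70 assignments of libraries to groups. Cyp7b1 to Cyp7a1, the alternative against the classical 7-alpha-hydroxylase, was at 4.71, 5.02, 7.16 and 6.83 in deficient 1 to 4 and at 3.32, 4.01, 4.57 and 4.47 in wild type 1 to 4, as log2 of CPM plus 0.1. The ratio was higher in all 4 deficient libraries, by 1.84 on the log2 scale (exact permutation p = 0.0286, the smallest possible here, and 0.0857 after Benjamini-Hochberg adjustment over the 3). It did not pass after adjustment, and for deficient 3 the ratio rests on 0 Cyp7a1 reads. In deficient 1, 2 and 4 Cyp7a1 stood at 0.181, 0.248 and 0.115 CPM. The added 0.1 therefore weighs on every deficient ratio to Cyp7a1, including that of Cyp8b1. Cyp8b1 to Cyp7a1 differed by -0.74 on the log2 scale (exact permutation p = 0.657, adjusted 0.657), and by 0.15 without deficient 1. Baat to Slc27a5 averaged -0.83 ± 0.41 in deficient and -1.58 ± 0.42 in wild-type livers on the log2 scale (SD, n = 4, exact permutation p = 0.0571, adjusted 0.0857). With FPKM plus 1 in place of CPM the first ratio turned to -0.23 (exact permutation p = 0.629) and the second moved to -2.05 (exact permutation p = 0.0286), since Cyp7a1 never reached an FPKM of 1 and the added 1 then stands in for it.

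The deficient libraries were not alike for the enzymes that fell, and those other than Cyp7a1 had the same lowest libraries. Against the wild-type mean, Cyp8b1 stood at -5.99, -1.12, -4.53 and -2.54 on the log2 scale in deficient 1 to 4. Akr1d1 stood at -2.78 in deficient 1 and -3.17 in deficient 3, against -1.28 in deficient 2. Slc27a5 stood at -1.23, -0.53, -1.11 and -0.91. Deficient 1 and 3 were thus the lowest for Cyp8b1, Akr1d1 and Slc27a5 and deficient 2 the highest. Cyp27a1 stood at -1.29, -0.58, -0.63 and -0.43 in deficient 1 to 4. It was also lowest in deficient 1 and 3, but deficient 2 lay close to deficient 3 and deficient 4 was the highest. Among wild-type libraries, wild type 3 was the highest for 6 of the 9 enzymes with reads. Cyp7a1 had too few reads to be ordered among deficient libraries.

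**Figure D3:**
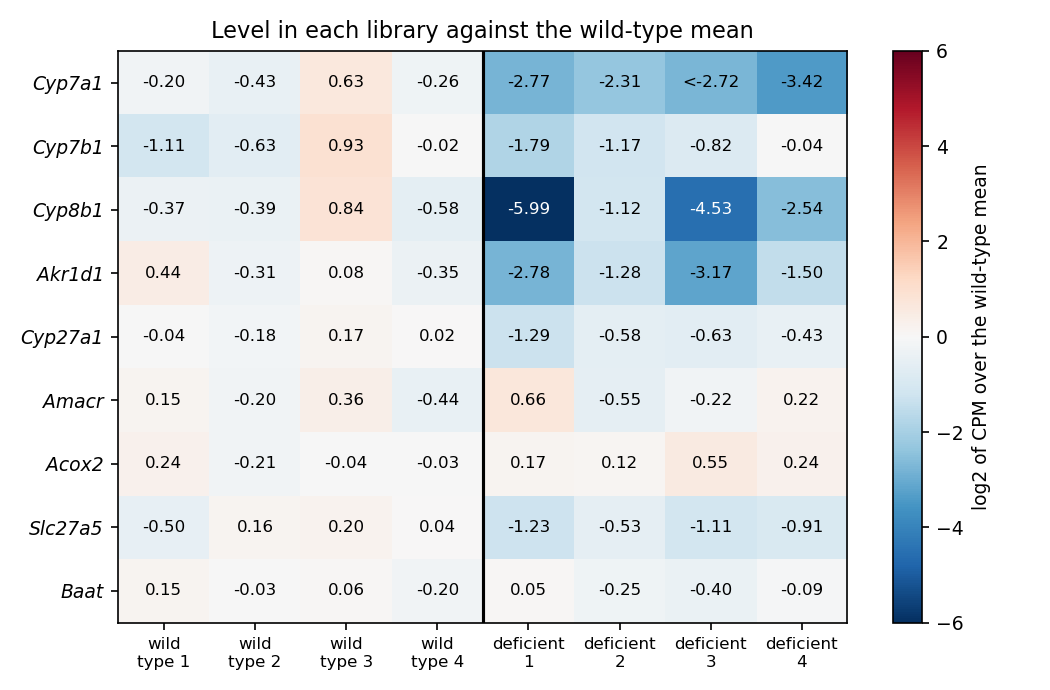
Log2 of the CPM of each enzyme over its wild-type mean, for wild type 1 to 4 and deficient 1 to 4 (columns); blue is below and red above the wild-type mean, and the value marked with a less-than sign is a bound from 3 reads where 0 were counted. Cyp8b1 reached -5.99 in deficient 1 and -4.53 in deficient 3, and Amacr, Acox2 and Baat stayed within 0.66 of the wild-type mean in every library.

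Of 12 further genes of bile acid synthesis that were tested, 6 fell and 0 rose, all 12 estimates were below 0, and the median log2 fold change was -0.64. Slc27a2, an acyl-CoA synthetase that activates bile acid precursors, was at 273, 349, 309 and 367 CPM in deficient 1 to 4 and at 474, 737, 1079 and 543 in wild type 1 to 4. No value overlapped, and Slc27a2 fell by 1.13 (log2, SE 0.24, adjusted p = 0.0116 in edgeR) and passed in all 17 alternatives. Cyp2c70, which makes the muricholic acids typical of mice, fell from 699 ± 98.7 to 383 ± 125 CPM (± SD of 4 libraries; edgeR, adjusted p = 0.0265). The aldo-keto reductases Akr1c14 and Akr1c6, members of a family of similar genes whose reads may be split uncertainly, fell by 1.57 (SE 0.40) and 0.94 (SE 0.23). Abcd3, which carries bile acid precursors into the peroxisome, and Cyp39a1, an oxysterol 7-alpha-hydroxylase, fell by 0.68 each (edgeR adjusted p = 0.0300 and 0.0468), and were named after their values were seen. Each of these 2 passed in only 9 of the 17 alternatives. The number of the 12 genes that fell was 1 without wild type 3, 2 without deficient 3, 3 without wild type 2, and 4 in the FPKM fits or when scaled by library size only. Slc27a2 was the gene left without wild type 3, and Cyp2c70 missed the threshold without deficient 1 or wild type 2, 3 or 4 (adjusted p from 0.0533 to 0.0788). Scp2, the peroxisomal thiolase gene, did not pass, with a 95% interval from -0.54 to 0.33.

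Among regulators of the pathway, 2 of 17 tested fell and 1 rose, with a median of -0.03. Among all genes tested 10.6% were called lower and 9.27% higher, so these counts do not set the regulators apart. Nr5a2, which encodes LRH-1, was at 19.9, 24.7, 24.5 and 27.9 CPM in deficient 1 to 4 and at 50.3, 38.7, 51.9 and 37.5 in wild type 1 to 4. All deficient libraries lay below all wild-type ones, and Nr5a2 fell by 0.88 (log2, SE 0.17, adjusted p = 0.00765 in edgeR). Klb, the coreceptor through which the intestinal hormone is read, was at 0.603, 3.23, 1.504 and 3.27 CPM in deficient livers against 9.68, 7.31, 14.8 and 9.04 in wild type. Klb fell by 2.24 (SE 0.42, edgeR adjusted p = 0.00750), again with deficient 1 and 3 the lowest, and both genes passed in all 17 alternatives. Foxa2, a hepatocyte transcription factor, rose by 0.77 (SE 0.22, edgeR adjusted p = 0.0310), but its groups overlapped and the call held in only 3 of the 8 fits with a library left out, with adjusted p = 0.0710 and 0.0939 without deficient 3 or 4 and 0.0613, 0.0924 and 0.0619 without wild type 2, 3 or 4. Nr1h4, which encodes FXR, was at 28.0 ± 11.1 in deficient livers against 39.6 ± 11.4 CPM in wild type (± SD of 4 libraries; edgeR, adjusted p = 0.230). Hnf4a was at 590 ± 168 and 602 ± 91.3 CPM, and Fgfr4 at 35.7 ± 13.3 and 39.3 ± 8.47 CPM. Nr0b2, which encodes SHP, had 0 to 10 reads per library and was not tested. Nr1h4, Hnf4a and Fgfr4 did not pass, and these 3 and Nr0b2 were named for their role in the pathway.

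Cytokine and JNK pathway genes, whose signals are known to lower Cyp7a1, were measured in the same livers. Of 9 genes tested, 6 fell and 0 rose, with a median of -1.55, and 2 fell without deficient 3. Jun, a component of AP-1, was at 136, 456, 117 and 445 CPM in deficient 1 to 4 and at 1217, 678, 994 and 951 in wild type 1 to 4. Deficient 1 and 3 were the lowest, as for Cyp8b1 and Akr1d1, and Jun fell by 1.73 (SE 0.42, edgeR adjusted p = 0.0167). This order was not particular to Jun, Klb and the enzymes. Sums of clock genes, bile acid transporters and hepatocyte markers were also lowest in deficient 1 and 3. Pericentral hepatocyte markers summed to 3332, 5720, 4142 and 5438 CPM in deficient 1 to 4. Not every list had this order, and periportal markers summed to 4878, 3721, 3617 and 4403 CPM. Socs3, the feedback inhibitor of cytokine signalling, fell from 615 ± 93.2 to 209 ± 80.7 CPM (± SD of 4 libraries; edgeR, adjusted p = 0.00481). The others were Il6, Osm, Junb and Fos, the last 2 named after their values were seen. Whether these genes and the enzymes are linked was not tested.

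Of 13 transporter genes of bile acids 6 fell and 0 rose, and 3 fell without deficient 3 or wild type 3. Slc10a1, the main sodium-dependent uptake carrier of hepatocytes, fell from 284 ± 66.2 to 103 ± 41.1 CPM (± SD of 4 libraries; edgeR, adjusted p = 0.0101), and Abcc2, an export pump of the bile canaliculus, by 1.43 on the log2 scale (SE 0.26). Of 7 detoxifying genes 3 fell and 0 rose, with 2 falls when any of deficient 3, wild type 2 and wild type 3 was left out. Sult2a8, a sulfotransferase of bile acids in mouse liver, fell from 232 ± 91.1 to 85.1 ± 31.4 CPM (± SD of 4 libraries; edgeR, adjusted p = 0.0109). Of 10 genes that deliver cholesterol and electrons to the sterol hydroxylases, 0 passed in edgeR, with 1 at an unadjusted p under 0.05 and 0 with DESeq2, and their median was -0.11.

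Of the 14 hepatocyte markers, all had estimates below 0, with a median log2 fold change of -0.30, and 1 of them passed, Cps1, the first enzyme of the urea cycle, at -0.94 (SE 0.24, edgeR adjusted p = 0.0220). Without deficient 1 or wild type 3, 0 passed, and with DESeq2 5 did. Their summed level was 81144 to 107555 CPM in deficient livers against 116180 to 129868 in wild type, without overlap, with deficient 1 the lowest. This sum is weighted to abundant markers such as Alb, which did not pass itself (-0.39 on the log2 scale, edgeR adjusted p = 0.0884). It therefore does not stand for all 14 markers alike. The part of the hepatocyte share in the falls of the enzymes was not tested. Baat, itself a hepatocyte gene, was at 89.3% of the level in wild type (95% interval 70.4% to 113%). Pericentral markers, of the zone where Cyp7a1 is mostly made, fell in 3 of 9 genes and periportal markers in 3 of 10 with 1 rise, with medians of -0.53 and -0.54. The pericentral count was 0 without deficient 1 or wild type 3, with library size alone and in the FPKM fits, and 1 when any of deficient 3, deficient 4, wild type 1 and wild type 4 was left out. The periportal count was 1 fall and 0 rises without wild type 3. Pericentral sums were 3332 to 5720 CPM in deficient livers against 6034 to 8620 in wild type. Periportal sums, 3617 to 4878 and 3288 to 3974 CPM, overlapped.

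Markers of other liver cells were low beside these and changed in both directions. Kupffer cell markers fell in 4 of 10 genes, with sums of 45.1 to 64.2 CPM in deficient livers against 60.9 to 197 in wild type, and 0 fell without deficient 3 and 1 without deficient 1, 2 or 4 or wild type 1 or 2. Neutrophil markers rose in 2 of 8, with sums of 82.6 to 162 and 23.1 to 92.3 CPM, and 0 rose without deficient 4, 1 rose when deficient 1 or wild type 3 was left out, and 6 rose without wild type 1. Endothelial and stellate markers each fell in 2 of 10, T and NK cell markers in 1 of 5 and cholangiocyte markers in 1 of 6, counts of 0 to 2 with single libraries left out except 5 stellate markers without deficient 1. Since 10.6% of all genes tested were called lower and 9.27% higher, counts this small do not set these lists apart. No marker of these 6 lists was at 0 in all libraries, and their part in the results was not tested. Female-biased liver genes, several of them near-identical copies, fell in 6 of 9 and male-biased ones in 1 of 3 tested, and the female-biased count was 3 when any of deficient 1, wild type 3 and wild type 4 was left out. Of 15 clock genes, which set a daily rhythm on Cyp7a1, 3 fell and 2 rose, with 1 fall when any of deficient 1, 3 and 4 and wild type 3 and 4 was left out. The labels give no time of day.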

How the data were processed

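RNA was measured in 8 liver libraries, 4 per genotype. Per the labels' protocols, polyadenylated RNA was selected and sequenced on an Illumina NovaSeq. Per the file headers, the authors deposited read counts and FPKM for each gene. Recomputed from counts and listed lengths, FPKM differed by at most 6.96e-05%. Per the submitters' processing notes, reads were trimmed with cutadapt and aligned with HISAT2 2.0.5. The counter, its use of strand, the build and the annotation were not given in the sources used here, so coordinates are as listed and reads of overlapping genes cannot be separated.

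Counts were tested with edgeR 4.0.16 (R 4.3.3): quasi-likelihood test, TMM scaling, default expression filter, 11380 of 21899 genes, Benjamini-Hochberg adjustment over all tested genes, threshold 0.05. The standard error is the log2 fold change divided by the square root of F, and intervals are 95%. Alternatives were DESeq2 1.42.0, limma 3.58.1 on log2(FPKM + 1) or log2(FPKM + 0.1) for genes at FPKM 0.5 in 4 libraries, voom, no filter, 1 CPM in 4 libraries, library size alone, robust empirical Bayes, a block for the replicate number, and leaving out single libraries. On simulated data for this comparison, run on 11262 genes, the test recovered 55.1% of 2-fold and 92.9% of 4-fold changes with 7 false calls. The simulated counts used the gene dispersions of this same fit. Only 98 genes were changed 2-fold and 99 were changed 4-fold, fewer than were called in the livers. These figures need not hold for the calls above, or for a gene as scarce as Cyp7a1. A level of 3 reads, the limit that a count of 0 allows, is 0.181 to 0.194 CPM, and such limits cover counting error only. Libraries of a group differed beyond counting noise (chi-square per degree of freedom 21.5 to 109, genes with 20 or more reads).

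The members and all gene lists were chosen with earlier results of these data known. Besides the members and P2rx4, up to 4 genes with the smallest p were named per list, with exceptions stated in the text. A fixed search for genes patterned like Cyp7a1 is not reported, because 0 to 4 reads per deficient library do not order these libraries. Promoter letters are from RefSeq (GRCm38.p6).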

Additional observations from a re-analysis of the deposited data

Results flagged for a closer look

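Of 74 groups of 4 libraries examined, 4 held a library far from the other 3, a gap that chance gives in about 5% of groups. Wild type 3 stood apart for Cyp7a1, at 1.91 CPM against 0.914 to 1.08 in the other wild-type libraries, and for Cyp8b1, at 54.9 CPM against 20.6 to 23.7. Without this library Cyp7a1 still passed and Cyp8b1 did not. Wild type 1 stood apart for Ppargc1a, the coactivator of several nuclear receptors, at 7.72 CPM against 5.26 to 5.67. Wild type 1 also stood apart for the log2 ratio of Baat to Slc27a5, at -0.95 against -1.84 to -1.74. Ppargc1a did not pass with all libraries (0.54 on the log2 scale, edgeR adjusted p = 0.0705) and passed without wild type 1 (0.67, adjusted p = 0.0401).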

How the results depend on the processing

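The number of the 9 tested enzymes that fell was 3 to 5 with single libraries left out and 4 or 5 in every other setting, and 0 rose in any. It was 4 with robust empirical Bayes, where Cyp8b1 missed the threshold, and 4 in the FPKM fits and at 1 CPM, where Cyp7a1 was not tested. Over all genes, 2264 passed, and 982 to 2388 did with single libraries left out, with 528 to 1309 lower and 454 to 1079 higher. The lowest came without wild type 3, where 970 of the 2264 still passed. The share of higher genes was 46.6%, against 67.2% with library size alone (1731 higher) and 66.3% and 66.2% with FPKM plus 1 or 0.1 (1602 and 1594 higher). The median of all genes moved by 0.145, 0.123 and 0.136 on the log2 scale in these settings, and the FPKM fits also changed the test and the filter (9645 genes tested), so the part of the scaling in them was not tested apart. Among the enzymes, Amacr changed sign, with -0.15 to 0.26 when single libraries were left out. The ratio of Cyp7b1 to Cyp7a1 ran from 1.43 to 2.24 with single libraries left out and had a p of 0.0857 or 0.114 without any of the wild-type libraries, and that of Cyp8b1 to Cyp7a1 from -1.28 to 0.15. With FPKM plus 1 they were -0.23 and -2.05. With the replicate number as a block, 1768 genes and 5 enzymes passed, and the first ratio kept its 1.84 with an exact sign-flip p of 0.125, the smallest possible. Deviations of same-numbered libraries correlated at 0.117, -0.128, 0.078 and -0.14, so the numbers were not taken as pairs. Cyp7a1 is limited by depth, with 0 to 29 reads per library.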

Other observations

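The wild-type mean of Cyp7a1, 0.279 FPKM, stood beside 10.9 for Cyp7b1 and 14.8 for Cyp8b1, and the FPKM ratio of Cyp7b1 to Cyp7a1 was 20.9 to 48.2 in the wild-type libraries. No liver without ConA was analysed here, so it was not tested whether this order belongs to the treatment. The listing of 0 reads for Hsd3b7, an enzyme that both pathways need, is shared by the transporter gene Slc51a among the bile acid genes examined, and neither can be read as a low level from this table.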
